A study of Mus musculus with 4 samples.

Results

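The Notch receptors Notch1, Notch2, Notch3 and Notch4, the ligands Dll1, Dll4, Jag1 and Jag2, and the target genes Hey1 and Hes1 were followed across the cell classes of bones from mice lacking Lats2 in the endothelium and from control mice. These 10 genes, 10 of 53703 in the annotation of the files, were taken by symbol, with no measured value in the rule, though earlier results of these data were known when they were chosen. Single-cell RNA sequencing covered 2 Lats2iECKO libraries and 2 control libraries, all at 12 weeks of age. Lats2iECKO mice carried floxed Lats2 alleles and the tamoxifen-inducible Cdh5-CreERT2 transgene, which drives Cre activity in endothelial cells (ECs), and received tamoxifen as young animals. The controls were Cre-negative littermates, which the labels call untreated and which the study's methods describe as given the same tamoxifen. Cells came from the dissected metaphysis region of the femur and tibia, after enzymatic digestion and depletion of hematopoietic cells. The mice were of both sexes on a C57BL/6 background. The labels do not say whether a library holds 1 animal or a pool, so p-values measure only the spread between 2 libraries per genotype.

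Notch signaling passes between touching cells. A ligand of the Delta-like or Jagged type on one cell binds a Notch receptor on its neighbor, the receptor is cut by ADAM proteases and by γ-secretase, and its intracellular part joins RBPJ on DNA to switch on genes such as those of the Hes and Hey families. In blood vessels, Dll4 and Notch1 restrain sprouting and mark arterial endothelium, Notch4 is largely an endothelial receptor, and Notch3 is the main receptor of the smooth muscle cells and pericytes that coat vessels, where Jag1 serves as a ligand. In bone, endothelial Notch activity is known to take part in the growth of metaphyseal capillaries. LATS2 is a kinase of the Hippo pathway that restrains YAP1 and TAZ, which act on DNA through TEAD factors.

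In short, Notch4 was lower in Lats2iECKO ECs, within arterial-like and metaphyseal capillary-like ECs as well, and Notch1 was lower in all ECs and in metaphyseal capillary-like ECs. Jag1 was higher in all ECs. Notch3 and Jag1 were lower in all mural cells together and among cells gated on pericyte markers, but neither was called in smooth muscle-like cells. Hes1 was called lower in all mural cells but in neither of these groups. Dll4 did not pass the test in any class where it was tested. Hes1 was higher in arterial-like ECs, reticular stromal cells, osteoblast-like cells and chondrocyte-like cells.

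Because the changes in Notch1, Notch4 and Notch3 carry the results, the bases before their starts are shown, from RefSeq promoters (table build GRCm38.p6) placed on GRCm39 by exact match. Bases inside an annotated exon of the gene (GENCODE M39) were left out, so each run is non-coding and upstream or intronic of the annotated transcripts. Capitals mark the TEAD core letters CATTCC, the reverse complement of GGAATG, and no other letters were marked.
Notch1, chr2:26393837-26394084, minus strand: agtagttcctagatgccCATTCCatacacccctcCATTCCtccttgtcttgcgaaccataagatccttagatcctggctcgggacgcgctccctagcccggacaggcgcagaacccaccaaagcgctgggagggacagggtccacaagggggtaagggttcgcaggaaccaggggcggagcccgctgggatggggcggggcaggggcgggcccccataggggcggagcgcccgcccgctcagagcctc
Notch4, chr17:34783019-34783219, plus strand: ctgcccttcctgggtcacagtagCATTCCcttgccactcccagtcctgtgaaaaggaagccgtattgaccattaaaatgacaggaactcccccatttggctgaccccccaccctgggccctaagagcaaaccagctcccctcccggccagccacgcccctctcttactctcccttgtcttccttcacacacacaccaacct
Notch3, chr17:32385894-32386114, minus strand: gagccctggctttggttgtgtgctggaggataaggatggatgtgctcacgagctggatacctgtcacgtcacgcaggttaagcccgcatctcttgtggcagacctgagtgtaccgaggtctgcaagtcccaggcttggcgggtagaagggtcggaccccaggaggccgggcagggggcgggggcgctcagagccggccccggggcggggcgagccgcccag
GGAATG on either strand was found in 12.6% of all 32851 promoters over the 250 bases before the start, and among the members in the windows of Notch1, starting 233 and 216 bases before the start, and of Notch4, starting 227 bases before it. The RBPJ core TGGGAA, on either strand, was found in 21.6% of all promoters and in none of the windows of the 8 members that the RefSeq table holds. The letters of the 2 motifs share GGAA and can overlap. Hey1 and Hes1 were not matched there. A match of letters is a description and says nothing of binding. Notch1 lies on chromosome 2 from 26347915 to 26406675, Notch3 on chromosome 17 from 32339794 to 32385893 and Notch4 on chromosome 17 from 34783220 to 34807477 (GRCm39).

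After filters, 5119 and 5887 barcodes of Lats2iECKO and 6813 and 6780 of control libraries remained, with median unique molecular identifiers (UMIs) of 7574 to 8181 per barcode, from library totals of 69636600 to 85899079. Cells were gated by marker lists that hold none of the 10 members. The 6 main types held 17867 barcodes, among them 2803 ECs and 1590 mural cells, the latter a smooth muscle-like (SMC-like) gate and a second gate described with its results. Pairs of libraries shared 6 to 16 barcodes, where 4.44 to 6.8 were expected from the size of the barcode list. Cre-ERT2 transcripts, which only the transgene gives, were counted 277 and 311 times in Lats2iECKO ECs and 4 and 5 times in control ECs. Lats2 in ECs was 93.2 and 97.1 CPM (counts scaled to a fixed total per class and library) in Lats2iECKO and 133 and 123 in control libraries (log2 fold change −0.36 ± 0.08, SE, adjusted p = 0.000619). Whether the counted part of Lats2 lies inside the deleted exons is not given in the sources used here, so this level does not measure the deletion.

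Levels below are CPM of a class summed within 1 library, listed as Lats2iECKO 1 and 2 and then control 1 and 2. Log2 fold changes are Lats2iECKO over control with their SE, fitted by the quasi-likelihood method of edgeR, and p-values were adjusted by Benjamini-Hochberg over every gene tested in that class. Genes detected in fewer than 20% of cells in both genotypes were not tested, and a call means an adjusted p no greater than 0.05. Detection also depends on the UMIs of a cell, and class medians of these differed between genotypes. They were 6796 and 6620 against 5584.5 and 5298 in ECs and 10818 and 12984 against 16071 and 17055 in osteoblast-like cells.

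In control libraries the receptors and ligands divided between endothelial and mural cells. Dll4, Jag2, Dll1, Notch1 and Notch4 were endothelial. Dll4 was 128 and 128 CPM in ECs and 1.16 and 0 CPM (2 and 0 UMIs) in mural cells. Notch4 was 122 and 108 CPM in ECs and 5.21 and 1.12 CPM in mural cells. Notch1 was 280 and 282 CPM in ECs and 55.0 and 52.5 CPM in mural cells (log2 difference mural over EC −2.26 ± 0.09, adjusted p = 9.71e-11, edgeR).

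Notch3 had the opposite distribution, with 5.74 and 9.31 CPM in ECs and 1238 and 1198 CPM in mural cells (log2 difference 7.47 ± 0.11, adjusted p = 3.38e-14, edgeR). Jag1 was 65.2 and 65.8 CPM in ECs and 152 and 182 CPM in mural cells (log2 difference 1.48 ± 0.13, adjusted p = 2.92e-07, edgeR), and so was expressed on both sides of the vessel wall. Of the 9 members tested between mural cells and ECs in controls, 9 differed, where 66.8% of all genes tested differed. Notch1, Notch4, Dll1, Dll4 and Jag2 were higher in ECs and Notch2, Notch3, Jag1 and Hes1 higher in mural cells. Notch4, Dll4, Jag2 and Dll1 were detected in 42.4%, 41.2%, 38.25% and 23.9% of control ECs. In control mural cells they were detected in 1.88%, 0.171%, 0.684% and 0.342% of cells. They thus passed the filter only through the ECs, and the direction of their calls was set by it. Notch2 and Notch3, detected in 9.81% and 2.22% of control ECs, were below the filter in ECs. With the 2000-UMI and 10% mitochondrial filter 8 of 9 differed, and Hes1 did not (0.30, adjusted p = 0.082).

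**Figure D1:**
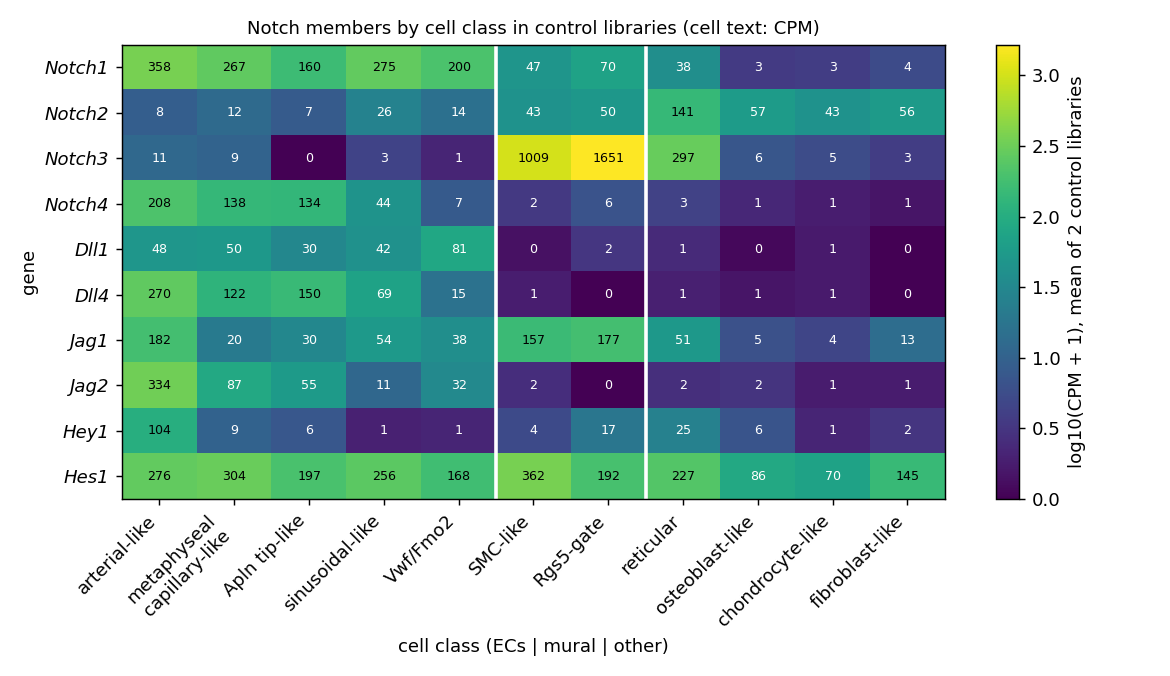
Mean CPM of each member (rows) over the 2 control libraries in each cell class (columns), coloured by log10(CPM + 1) and printed in each cell. Dll4, Jag2 and Notch4 are highest in the arterial-like column (269.5, 334 and 208 CPM) and low in some other EC columns, such as Notch4 in Vwf/Fmo2 ECs. Notch3 is high in the SMC-like and Rgs5-gate columns, where it reaches 1009 and 1651 CPM, and Hes1 is present in every column.

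Among the EC subclasses of control libraries, the arterial-like ECs (gated on Gja4, Gja5, Sox17, Bmx, Fbln5 and Sema3g) held the highest levels of most members. Notch4 in controls was 205 and 211 CPM in arterial-like ECs, 147 and 128 in metaphyseal capillary-like ECs, 53.4 and 34.1 in sinusoidal-like ECs and 4.59 and 9.76 in the Vwf/Fmo2 ECs. The groups did not overlap along this order, from artery to the Vwf/Fmo2 ECs. Dll4 followed the same order, with 258 and 281 CPM in arterial-like, 121 and 122 in metaphyseal capillary-like, 68.2 and 70.7 in sinusoidal-like and 16.1 and 14.6 CPM in Vwf/Fmo2 ECs. The Apln tip-like ECs, with 12 and 10 cells in the control libraries, stood at 133 and 166 CPM for Dll4 and 178 and 89.6 CPM for Notch4, and at such numbers could not be placed apart from the metaphyseal capillary-like ECs.

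Jag2 in controls was 304 and 364 CPM in arterial-like ECs, 89.0 and 85.8 in metaphyseal capillary-like ECs and 12.8 and 9.14 in sinusoidal-like ECs. Jag1 was 179 and 185 CPM in arterial-like ECs and 18.8 to 60.1 CPM in the metaphyseal capillary-like, sinusoidal-like and Vwf/Fmo2 ECs. Hey1, a transcription factor that takes part in arterial fate, was 105 and 104 CPM in arterial-like ECs and at most 12.8 CPM in a control library of the other EC subclasses. Dll1 had no such order: it was 48.6 and 48.2 CPM in arterial-like ECs and 75.8 and 85.4 in Vwf/Fmo2 ECs.

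Of the 8 members tested for a difference between arterial-like ECs and the mean of the other EC subclasses in controls, 6 differed, all higher in arterial-like ECs, where 26.2% of all genes tested differed. They were Notch1 (log2 difference 0.69 ± 0.13, adjusted p = 0.000593), Notch4 (2.09 ± 0.16, adjusted p = 7.59e-08), Dll4 (2.01 ± 0.11, adjusted p = 1.76e-09), Jag1 (2.46 ± 0.18, adjusted p = 2.75e-08), Jag2 and Hey1, all by edgeR. Hey1 was detected in 35.4% and 35.1% of arterial-like ECs of the control libraries. In the other EC subclasses it was in at most 10.0% of the cells of a control library. Hey1 thus passed the filter only through the arterial-like ECs, and the direction of its call was set by it. Hes1 (0.29 ± 0.12, adjusted p = 0.086) and Dll1 (0.06 ± 0.26, adjusted p = 0.92) did not pass. With the stricter gate 7 of 8 differed, and Hes1 was called (0.34, adjusted p = 0.0463). Under that gate the Apln tip-like ECs, which enter the mean of the other subclasses, had too few control cells for a fit of their own.

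Across the 44 sums of 4 libraries and 11 classes, the genes with levels most like those of Dll4 were Bcl6b (Pearson's r 0.98 of log2(CPM + 1)), N4bp3 (0.96) and Kcnq1 (0.96). For Notch4 they were Cldn5 (0.92), a tight junction protein of endothelium, Tnfrsf26 (0.92) and Sh3glb1 (0.92). For Notch3 they were Trarg1 (0.96), Trpc6 (0.93), a cation channel, and Dock10 (0.93). These are descriptions among 9842 genes, over sums that share libraries and cell classes.

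The question of the genotype comparison was whether loss of Lats2 in ECs goes with a change of these members. In all ECs, 7 of the 10 members passed the filter and 4 were called, Jag1 higher and Notch1, Notch4 and Jag2 lower, and 60.6% of all genes tested in ECs were called. The share among the members is thus near that of all genes. The median log2 fold change of the 7 was 0.03, beside 0.00418 for all genes tested. Notch2, Notch3 and Hey1 were below the filter.

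Notch4 fell in ECs. It was 78.1 and 77.5 CPM in Lats2iECKO and 122 and 108 CPM in control ECs (log2 fold change −0.50 ± 0.08, adjusted p = 4.51e-05, edgeR). Both mutant libraries lay below both controls. In arterial-like ECs it was 114 and 129 against 205 and 211 CPM (−0.70 ± 0.13, adjusted p = 9.72e-05), and in metaphyseal capillary-like ECs 91.0 and 81.9 against 147 and 128 CPM (−0.63 ± 0.13, adjusted p = 0.00107). In sinusoidal-like ECs it was 42.0 and 28.1 against 53.4 and 34.1 CPM, where the groups overlapped (−0.26 ± 0.34, adjusted p = 0.696). Marker lists moved in metaphyseal capillary-like ECs too. The osteoblast list was lower (57.5 and 95.1 against 205 and 385 CPM) and the fibroblast list, at a low level, higher (12.1 and 26.5 against 3.07 and 3.60 CPM). Among endothelial lists, the EC list (5965 and 5818 against 6564 and 6416 CPM) and the sinusoidal list (586 and 612 against 778 and 701 CPM) were lower. The tip list was higher (614 and 687 against 399 and 438 CPM), and the libraries overlapped for the metaphyseal list of the gate itself. Their part in the Notch4 and Notch1 values was not tested.

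Notch1, the receptor that restrains tip cell formation, was 190 and 212 CPM in Lats2iECKO and 280 and 282 CPM in control ECs (log2 fold change −0.42 ± 0.07, adjusted p = 0.000127, edgeR). The mutant libraries were lower again. Within metaphyseal capillary-like ECs it was 189 and 206 against 267 and 268 CPM (−0.39 ± 0.10, adjusted p = 0.00665), a call that DESeq2 did not make (adjusted p = 0.064; the alternatives ranged from 0.000874 to 0.064). In arterial-like ECs it was 264 and 320 against 352 and 364 CPM (−0.22 ± 0.11, adjusted p = 0.15), and in sinusoidal-like ECs 272 and 222 against 270 and 281 CPM (−0.09 ± 0.15, adjusted p = 0.762).

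Subclass shares differed between the genotypes. Of the ECs, 8.54% and 7.63% were sinusoidal-like in Lats2iECKO and 23.8% and 24.9% in control libraries, and 12.1% and 14.96% were Apln tip-like against 1.47% and 1.25%. Vwf/Fmo2 ECs, where Notch4 was lowest, were 21.6% and 22.9% against 8.3% and 9.2%. Metaphyseal capillary-like ECs were 19.2% and 18.0% against 33.3% and 30.8%, and arterial-like ECs 28.5% and 27.6% against 24.2% and 23.8%. With arterial-like, sinusoidal-like, metaphyseal capillary-like and Vwf/Fmo2 ECs weighted equally, Notch1 was 223 and 235 against 276 and 274 CPM, so that the log2 ratio of means was −0.26 in place of −0.49 for the raw CPM of all ECs. For Notch4 the ratio was −0.69 with equal weights and −0.56 without them.

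**Figure D2:**
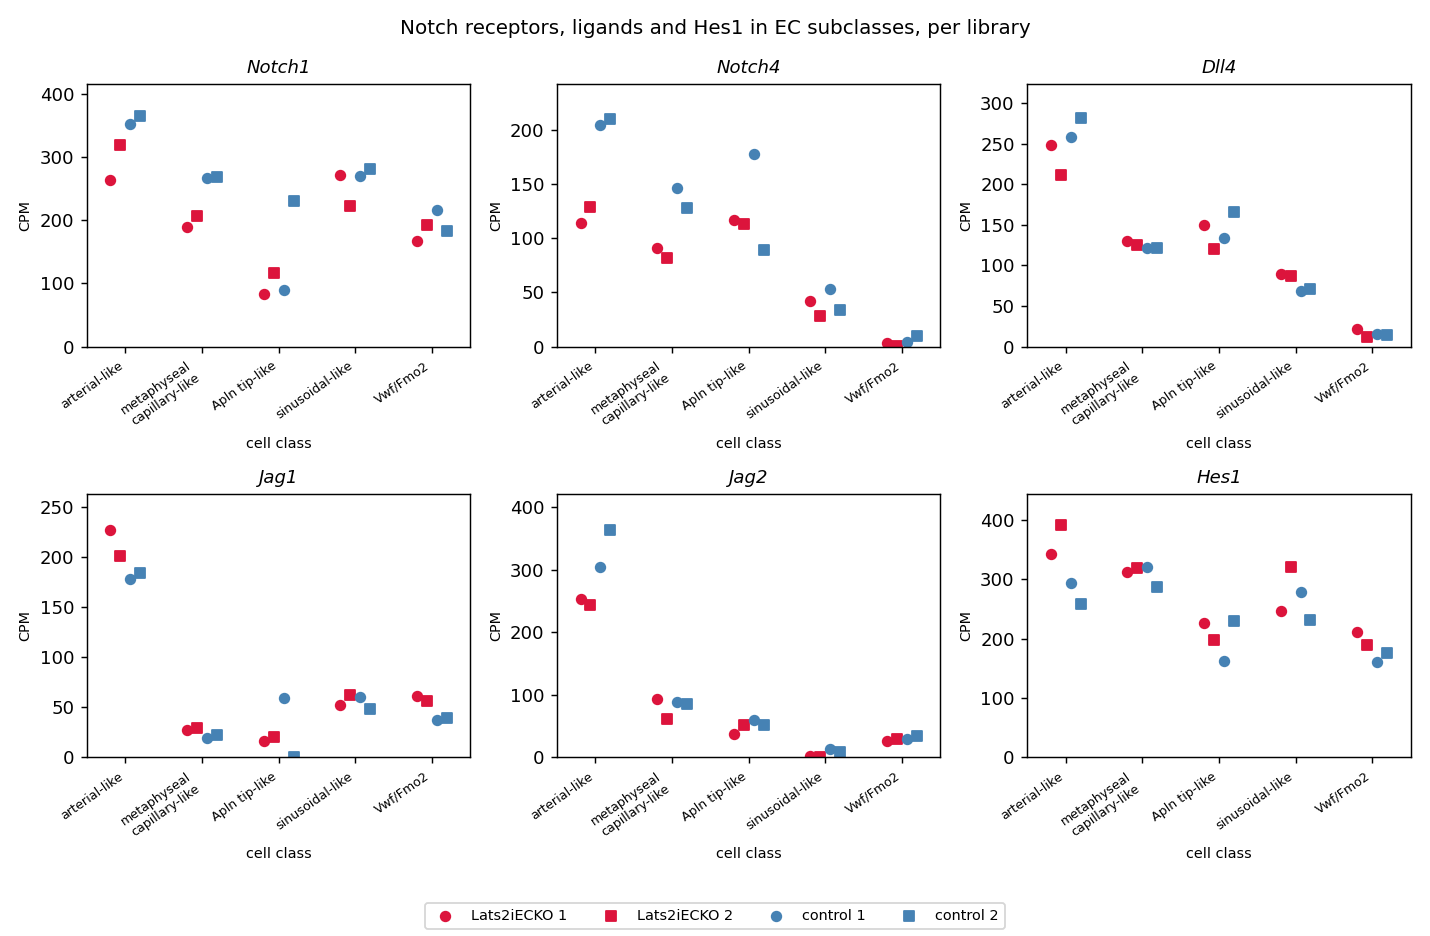
CPM (vertical axes, from 0) of 6 members in the 5 EC subclasses (horizontal axes), 1 point per library, Lats2iECKO in red and control in blue, circles for replicate 1 and squares for replicate 2. Notch4 points of Lats2iECKO lie below the controls in arterial-like ECs (114 and 129 against 205 and 211) and metaphyseal capillary-like ECs, whereas Dll4 points of the genotypes lie close together in metaphyseal capillary-like ECs.

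Among the ligands, Dll4, which activates Notch1 in sprouting vessels, was 138 and 113 CPM in Lats2iECKO and 128 and 128 CPM in control ECs (log2 fold change 0.03 ± 0.09, adjusted p = 0.798, edgeR). The libraries overlapped. Its log2 fold changes were −0.16 ± 0.12 in arterial-like, 0.12 ± 0.12 in metaphyseal capillary-like and 0.40 ± 0.19 in sinusoidal-like ECs, and none passed the test. Dll1 was 38.9 and 58.2 against 48.4 and 48.1 CPM in ECs (0.10 ± 0.14, adjusted p = 0.55).

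Jag1 rose in ECs, from 65.2 and 65.8 CPM in control to 84.2 and 77.5 CPM in Lats2iECKO libraries (log2 fold change 0.36 ± 0.08, adjusted p = 0.000669, edgeR). Within the subclasses the value was 0.31 ± 0.13 in arterial-like ECs (228 and 202 against 179 and 185 CPM, adjusted p = 0.074) and 0.15 ± 0.25 in sinusoidal-like ECs (adjusted p = 0.76), and neither passed. In metaphyseal capillary-like ECs Jag1 was detected in 20.1% of mutant and 13.9% of control cells, and in Vwf/Fmo2 ECs in 32.6% and 19.0%, so it passed the filter there only through the mutant cells and its tests are not given. Mutant cells of the former held more UMIs (medians 8148 and 6369.5 against 5892.5 and 5546). At a fixed depth of 3000 UMIs its Jag1 shares overlapped (8.69% and 6.63% against 5.43% and 7.16%). Those of Vwf/Fmo2 ECs did not (16.4% and 15.3% against 10.4% and 10.2%). With equal weights of the subclasses Jag1 was 91.9 and 87.6 against 73.6 and 73.7 CPM.

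Jag2 fell in ECs and in arterial-like ECs. It was 97.7 and 87.6 against 109 and 118 CPM in ECs (log2 fold change −0.23 ± 0.08, adjusted p = 0.0167, edgeR) and 254 and 244 against 304 and 364 CPM in arterial-like ECs (−0.36 ± 0.12, adjusted p = 0.0214). The markers of the arterial gate itself (6 of 6 detected) summed to 2864 and 2813 against 3519 and 3304 CPM in arterial-like ECs. The reticular list (6 of 6) summed to 1669 and 1913 against 2273 and 2492 CPM. Both were lower in the mutants, as Jag2 and Notch4 were. Among other lists, osteoblast (63.4 and 165 against 223 and 1075 CPM) and Vwf/Fmo2 (214 and 277 against 415 and 366 CPM) were lower too. So was the EC list (6424 and 6429 against 6999 and 6757 CPM). The chondrocyte list was higher (214 and 227 against 110 and 183 CPM). The part of these lists in the Jag2 and Notch4 values was not tested. DESeq2 gave adjusted p = 0.11 in ECs and 0.15 in arterial-like ECs, and the alternatives ranged from 0.00223 to 0.3 and from 0.00792 to 0.28. The call in ECs was lost without Lats2iECKO replicate 2 (log2 fold change −0.15) and without control replicate 2 (−0.18), and that in arterial-like ECs without Lats2iECKO replicate 1, without Lats2iECKO replicate 2 or without control replicate 2 (−0.39, −0.33 and −0.23).

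Of the targets, Hes1 rose in arterial-like ECs, from 294 and 259 CPM to 343 and 392 CPM (log2 fold change 0.48 ± 0.11, adjusted p = 0.0018, edgeR), without Lats2iECKO replicate 2 at adjusted p = 0.05005 (over the alternatives 0.000421 to 0.05005). In all ECs it was 282 and 282 against 289 and 252 CPM (0.12 ± 0.07, adjusted p = 0.15). With equal weights of the subclasses Hes1 was 278 and 305 against 264 and 238.5 CPM, both mutant libraries above both controls. The summed level of 4 red cell transcripts (Hba-a1, Hbb-bs, Alas2 and Slc4a1) moved with Hes1 in arterial-like ECs, at 437 and 506 against 136 and 154 CPM, and its part in the Hes1 value was not tested. Hey1 in arterial-like ECs was 87.5 and 83.0 against 105 and 104 CPM (−0.23 ± 0.15, adjusted p = 0.28). The 2 targets thus had values of opposite sign in the same cells, and for Hey1 it did not pass the test.

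In arterial-like ECs, 8 of 10 members passed the filter and 3 were called (Notch4 and Jag2 lower, Hes1 higher), where 27.2% of all genes tested were called. In metaphyseal capillary-like ECs 2 of the 6 members above the filter in both genotypes were called, where 31.3% of all genes tested were. Neither count is read as a result about the members as a group. No member was called by edgeR in the sinusoidal-like ECs (6 tested, 8.96% of all genes called), the Apln tip-like ECs (5 tested, 0.837% called) or the Vwf/Fmo2 ECs (4 tested, 6.74% called), and DESeq2 called 0 in each. At an unadjusted p under 0.05 edgeR had 0, 0 and 1 members in these subclasses, the last being Jag1 in Vwf/Fmo2 ECs, where it passed the filter only through the mutant cells. Whether the genotype effect differs between arterial-like ECs and the mean of the other EC subclasses was tested for 8 members, and 0 differed by edgeR, the tool run, where 1.17% of all genes tested did. Dll1 alone had an unadjusted p under 0.05 (0.043, difference 0.75 ± 0.35).

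The other genes of the pathway were followed as a list of 40, of which 21 passed the filter in ECs. Of these, 20 passed in both genotypes and 10 of the 20 were called, 2 higher and 8 lower, where 60.6% of all genes tested were called. Nrarp, a feedback inhibitor that Notch itself switches on, was 117 and 106 CPM in Lats2iECKO and 66.8 and 65.8 CPM in control ECs (log2 fold change 0.81 ± 0.08, adjusted p = 1.61e-07, edgeR). In arterial-like ECs it was 186 and 163 against 138 and 104 CPM (0.58 ± 0.14, adjusted p = 0.00254). Psenen, a subunit of γ-secretase, was the other gene that rose in ECs (0.45 ± 0.08).

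The genes that fell in ECs were the coactivators Maml2 (log2 fold change −0.45 ± 0.05), Maml3 (−1.14 ± 0.07) and Kat2b (−0.28 ± 0.07), the proteases Adam10 (−0.23 ± 0.07) and Adam17 (−0.32 ± 0.09), the ubiquitin ligases Mib1 (−0.34 ± 0.08) and Itch (−0.49 ± 0.09), and the Notch antagonist Numb (−0.52 ± 0.07). Maml3 went from 347 and 331 CPM to 141 and 153 CPM. In arterial-like ECs 5 of the 17 that passed in both genotypes were called, where 27.2% of all genes tested were, Nrarp higher and Maml2, Maml3, Adam10 and Itch lower.

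**Figure D3:**
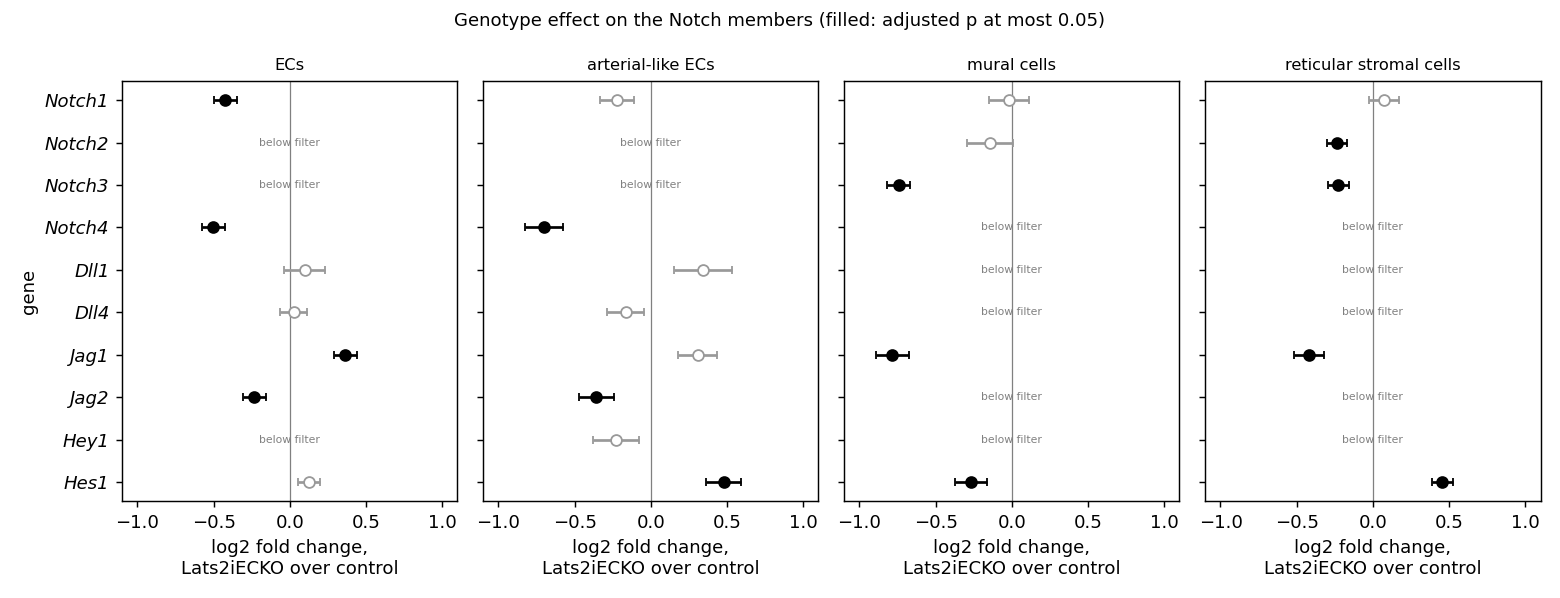
Log2 fold change of Lats2iECKO over control (horizontal axis, error bars are SE) of each member (vertical axis) in ECs, arterial-like ECs, mural cells and reticular stromal cells, filled where the adjusted p was at most 0.05 and marked where below the filter. Notch4 lies left of 0 in both EC panels, at −0.50 and −0.70, Notch3 and Jag1 lie left of 0 in mural cells, and Jag1 lies right of 0 in ECs.

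In mural cells, 5 members passed the filter and 3 were called, all lower (Notch3, Jag1 and Hes1), where 49.6% of all genes tested were called. The median log2 fold change of the 5, which is the value of Hes1, was −0.27, beside 0.000274 for all genes. Hes1 did not have this sign in either mural gate, as given below. Neither the count nor the median is read as a result about the members as a group. Notch3, the receptor of vascular smooth muscle and pericytes, was 697 and 746 CPM in Lats2iECKO and 1238 and 1198 CPM in control mural cells (log2 fold change −0.74 ± 0.07, adjusted p = 1.08e-07, edgeR). Jag1 was 103 and 89.8 against 152 and 182 CPM (−0.78 ± 0.11, adjusted p = 7.71e-06). For both genes each mutant library was below each control.

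The makeup of the mural class differed. The SMC-like cells, gated on Myh11, Acta2, Cnn1, Tagln, Actg2 and Lmod1, numbered 151 and 178 in Lats2iECKO and 203 and 215 in control libraries. The second gate used Rgs5, Kcnj8, Abcc9, Higd1b, Cspg4 and Ndufa4l2, markers of pericytes, and held 300 and 334 cells against 73 and 72. With all libraries pooled, its leading genes by fold over SMC-like cells were Mmp9, Tmem273, Doxl1, Mmp13 and Hsd11b1. None of its own markers was among the first 10, and most cells of the pool were from Lats2iECKO libraries. The data thus go against the name pericyte for the pool, and the gate is called the Rgs5 gate. Its summed marker level was 5779 and 6252 CPM in Lats2iECKO and 16680 and 16162 CPM in control libraries, with 6 of 6 markers detected in each. Rgs5 made up most of this sum, at 3903 and 4388 against 14314 and 13563 CPM. Abcc9 (398 and 374 against 731 and 793 CPM) and Higd1b (166 and 149.5 against 322 and 381 CPM) were lower as well. Cspg4 was 311 and 334 against 294 and 287 CPM, Ndufa4l2 844 and 854 against 869.6 and 959.7 CPM, and Kcnj8, whose libraries overlapped, 157 and 153 against 149 and 179 CPM. Cells with 2 or more UMIs of Mmp9 and Mmp13 made up 95 and 107 of its mutant cells and 0 and 3 of its control cells.

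In the Rgs5 gate, Notch3 was 630 and 682 CPM in Lats2iECKO and 1612 and 1689 CPM in control libraries, 2.37-fold lower (log2 fold change −1.25 ± 0.11, adjusted p = 3.64e-08, edgeR). Jag1 was 80.7 and 69.1 against 152 and 202 CPM, 2.23-fold lower (−1.16 ± 0.17, adjusted p = 2.89e-05). Both were called of 5 tested, where 34.3% of all genes tested in the gate were called. Marker lists of other cell types moved with them in this gate. The reticular list (6 of 6 detected) was 554 and 565 against 1313 and 1047 CPM, the EC list 62.6 and 69.4 (7 of 7) against 231 and 181 CPM (5 and 4 of 7), and the fibroblast list 69.9 and 68.4 (6 of 6) against 138 and 146 CPM (4 and 3 of 6). The chondrocyte list (8 of 8) was higher, at 592 and 700 against 315 and 372 CPM, as was the red cell sum described above (4 of 4 detected in Lats2iECKO, 2 of 4 in control libraries), at 429 and 455 against 128 and 192 CPM. Their part in the Notch3 and Jag1 values was not tested. Hes1 was 171 and 214 against 211 and 174 CPM (0.09 ± 0.16, adjusted p = 0.69), and the libraries overlapped.

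Because the gate holds different cells in the 2 genotypes, it was restricted after its leading genes were seen to cells high in Rgs5 with fewer than 2 UMIs of Mmp9 and Mmp13. This left 142 and 150 mutant and 61 and 57 control cells. Among the cells left out, the mutant Mmp9 and Mmp13 cells held Notch3 at 415.5 and 580 CPM and Jag1 at 72.3 and 55.7 CPM. In the cells kept, Notch3 was 938 and 901 CPM in Lats2iECKO and 1924 and 2184 CPM in control libraries (log2 fold change −1.05 ± 0.11, adjusted p = 6.55e-09, edgeR). Jag1 was 103 and 97.0 against 178 and 252 CPM (−0.98 ± 0.19, adjusted p = 0.000151). Rgs5 itself was 7007 and 7184 against 17305 and 17926 CPM in these cells, and Abcc9 458 and 446 against 883 and 1001. Higd1b was 327 and 296 against 384 and 509.8 CPM and Kcnj8 218 and 223 against 181 and 236 CPM, whereas Cspg4 (309 and 338 against 236 and 205 CPM) and Ndufa4l2 (826 and 923 against 751 and 784 CPM) were higher in both mutant libraries. Pdgfrb, shared by mural cells and fibroblasts, was 952 and 995 against 1146 and 1086. Notch3 and Jag1 were thus lower among Rgs5-high cells too, beside a lower level of Rgs5 itself, and the part of the latter was not tested. Notch2 was called lower as well (27.99 and 27.2 against 54.8 and 59.8 CPM, −0.94, adjusted p = 0.0178), but it was detected in 17.5% of mutant and 22.9% of control cells and so passed the filter only through the controls.

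**Figure D4:**
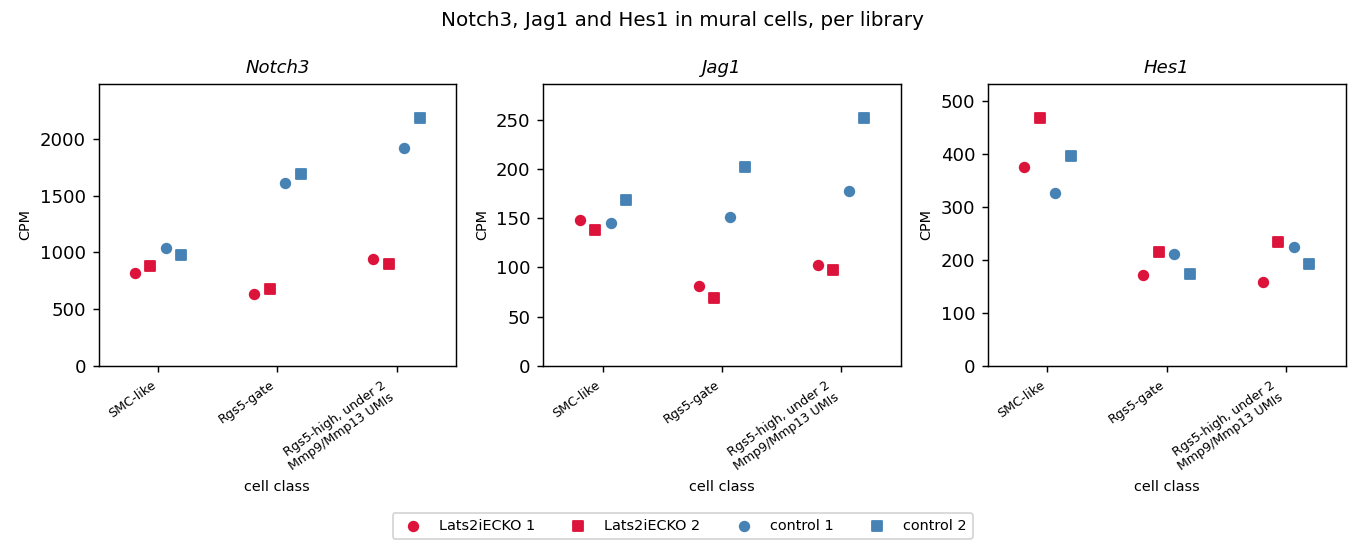
CPM (vertical axes, from 0) of Notch3, Jag1 and Hes1 in SMC-like cells, the Rgs5 gate and its Rgs5-high cells with fewer than 2 Mmp9 and Mmp13 UMIs (horizontal axes), 1 point per library as coloured in the legend. In the Rgs5 gate the Notch3 points are 630 and 682 in Lats2iECKO and 1612 and 1689 in control libraries, while those of SMC-like cells lie closer together, and Hes1 points overlap.

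In SMC-like cells, 0 of 5 members tested were called by edgeR or DESeq2, where edgeR called 15.9% of all genes tested. Notch3, the 1 member with an unadjusted p under 0.05, was 814 and 884 against 1041 and 976 CPM (log2 fold change −0.24 ± 0.08, adjusted p = 0.0526), just short of the threshold; over the alternatives its adjusted p ran from 0.0221 to 0.35. It was called with the 2000-UMI and 10% mitochondrial filter (−0.38), with the stricter gate (−0.25), with free RNA subtracted (−0.27), without control replicate 2 (−0.29) and with the replicate number as a block (−0.24). Jag1 was 148 and 138 against 145 and 169 CPM (−0.13 ± 0.12, adjusted p = 0.52). The genotype effect itself differed between SMC-like cells and the Rgs5 gate for Notch3 (difference 0.98 ± 0.14, SMC-like minus Rgs5 gate, adjusted p = 0.000168) and Jag1 (1.00 ± 0.20, adjusted p = 0.00264) in an interaction test with edgeR, in which 12.4% of all genes tested differed. Notch2 did not pass (0.41 ± 0.34, adjusted p = 0.52), but was called with the stricter gate (1.42, adjusted p = 0.0149).

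Hes1 in all mural cells was 233 and 289 against 293 and 342 CPM (log2 fold change −0.27 ± 0.10, adjusted p = 0.0385). In the SMC-like cells it was 376 and 469 against 327 and 397 CPM (0.24 ± 0.12) and in the Rgs5 gate 0.09 ± 0.16, so that neither subclass had the sign of the whole. SMC-like cells, with the higher Hes1 level, were 31.7% and 33.6% of mural cells in Lats2iECKO and 70.5% and 72.4% in control libraries. The part of this share in the Hes1 value of all mural cells was not tested. The call in mural cells held in 8 of 14 alternatives. DESeq2 did not make it, and it was lost, among others, without Lats2iECKO replicate 1 (−0.13) and without control replicate 2 (−0.15). With the Rgs5 gate restricted to Rgs5-high cells as above, Hes1 in mural cells was at −0.07 (adjusted p = 0.66, edgeR).

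Hey1 was below the filter in mural cells and in both mural gates, and so was not called. It was 22.6 and 24.3 against 6.94 and 8.38 CPM in mural cells (log2 fold change without the filter 1.67 ± 0.27, adjusted p = 1.53e-08, edgeR) and 30.8 and 32.5 against 13.6 and 21.2 CPM in the Rgs5 gate (1.15 ± 0.37, adjusted p = 0.0203). It was detected in 11.2% of mutant and 3.93% of control mural cells. Among the Rgs5-high cells it was 22.0 and 21.3 against 16.4 and 9.44 CPM. The control values in mural cells rest on 12 and 15 UMIs. Barcodes with at most 100 UMIs held Hey1 at 7.21 and 8.31 CPM in Lats2iECKO and 8.67 and 11.1 CPM in control libraries. In the Mmp9 and Mmp13 cells of the Rgs5 gate, nearly all from mutants, Hey1 was 47.5 and 52.2 CPM in the Lats2iECKO libraries. The part of these cells and of free RNA in the Hey1 values was not tested.

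Among the other pathway genes in mural cells, 20 of 40 passed the filter, of which 15 passed in both genotypes, and 7 of these 15 were called, where 49.6% of all genes tested were. Psenen, of γ-secretase, was higher (log2 fold change 0.37 ± 0.12). The 6 that fell were Kat2b (−0.60 ± 0.13), Spen, a corepressor (−0.51 ± 0.14), Dtx3 (−0.43 ± 0.12), Maml2 (−0.41 ± 0.09), Adam17 (−0.34 ± 0.13) and Mib1 (−0.32 ± 0.11). A further 4 were called that passed the filter only through the genotype where they were high. They were Aph1a, also of γ-secretase, higher, and Hey2, a target related to Hey1, Nrarp and Neurl1b, a ligand-trafficking ubiquitin ligase, lower. Hey2 was 34.7 and 25.7 against 92.0 and 69.8 CPM and Nrarp 32.8 and 35.8 against 58.4 and 71.5 CPM.

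In the Rgs5 gate, 15 pathway genes passed the filter in both genotypes and 8 of these were called, where 34.3% of all genes tested were. Psenen (log2 fold change 0.61 ± 0.21) and Maml3 (0.56 ± 0.17) were higher, and Dtx3 (−0.92 ± 0.17), Kat2b (−0.88 ± 0.22), Heyl, Maml2 (−0.67 ± 0.13), Numb (−0.61 ± 0.19) and Itch (−0.54 ± 0.16) were lower. The target Heyl was 102 and 91.8 against 211 and 146 CPM (log2 fold change −0.80 ± 0.17, adjusted p = 0.0011, edgeR), and among its Rgs5-high cells the value was −0.79 ± 0.20. Nrarp in the gate was 10.4 and 7.25 against 56.6 and 72.9 CPM and Hey2 15.4 and 12.8 against 65.7 and 49.4 CPM. Nrarp was detected in 5.68% of mutant and 24.1% of control cells and Hey2 in 9.62% and 24.8%, so both passed the filter only through the controls. In SMC-like cells 1 of the 17 pathway genes that passed in both genotypes was called, where 15.9% of all genes tested were. It was Mib1 (70.5 and 62.4 against 98.2 and 93.2 CPM, −0.52 ± 0.16, adjusted p = 0.0329).

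In the stromal classes, the reticular stromal cells had 3 of the 4 members above the filter in both genotypes called, where 39% of all genes tested were called. Notch2, the broadly expressed receptor, was 114 and 119 against 143 and 139 CPM (log2 fold change −0.23 ± 0.07, adjusted p = 0.00973, edgeR) and Notch3 236 and 256 against 300 and 293 CPM (−0.23 ± 0.07, adjusted p = 0.0126). Jag1 was 36.1 and 37.6 against 53.1 and 48.3 CPM (−0.42 ± 0.10, adjusted p = 0.00234), but it was detected in 19.3% of mutant and 25.96% of control cells and so passed the filter only through the controls. With clusters in place of gates it was at −0.04 (adjusted p = 0.69; the alternatives ranged from 0.00158 to 0.69). Notch2 and Notch3 lost their calls with DESeq2 (adjusted p = 0.105 and 0.053) and without the gene filter. They also lost them without control replicate 1 (log2 fold change −0.22 and −0.21) and without control replicate 2 (−0.25 and −0.24), and Notch3 also without Lats2iECKO replicate 1 (−0.17). Reticular cells made up 16.2% and 17.4% of the 6 types in Lats2iECKO and 38.7% and 37.5% in control libraries.

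Hes1 rose in 3 stromal and skeletal classes, where Hey1 was below the filter. In reticular stromal cells it was 289 and 315 against 236 and 218 CPM (log2 fold change 0.45 ± 0.07, adjusted p = 4.85e-05, edgeR). In osteoblast-like cells it was 159 and 134 against 89.0 and 83.4 CPM (0.75 ± 0.09, adjusted p = 0.000136). In chondrocyte-like cells it was 152 and 149 against 68.4 and 70.9 CPM (1.22 ± 0.04, adjusted p = 2.56e-08).

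In the barcodes with at most 100 UMIs, which carry free RNA, Hes1 was 152 and 158 CPM in Lats2iECKO and 98.7 and 106 CPM in control libraries, higher in the mutants too. After an estimated share of free RNA was subtracted, Hes1 was still called in reticular, osteoblast-like and chondrocyte-like cells. The share was estimated at 1.64% to 1.96% in osteoblast-like cells, at 7.89% and 3.71% against 3.10% and 3.17% in reticular stromal cells, and at 11.5% to 18.1% in chondrocyte-like cells. It was read from markers of other cell types, so any true expression of them raises it. Chondrocyte-like cells were 46.8% and 43.5% of the 6 types in Lats2iECKO and 23.0% and 23.7% in control libraries, and marker lists of other cell types moved with Hes1 there. The list of the Rgs5 gate (6 of 6 detected) summed to 1064 and 1060 against 468 and 492 CPM, and the osteoblast list (6 of 6) to 4886 and 4829 against 3892 and 3493 CPM. In osteoblast-like cells the list of the Rgs5 gate (5 of 6 detected in Lats2iECKO, 6 of 6 in control libraries) was 185 and 249 against 96.9 and 89.5 CPM. In reticular stromal cells the chondrocyte list (8 of 8 detected) was 642 and 312 against 182 and 186 CPM. The 4 red cell transcripts were higher in both mutant libraries than in both controls in all 13 classes. Their sum, with 4 of 4 detected in each library, was 328 and 394 against 145 and 138 CPM in chondrocyte-like cells, 333 and 404 against 104 and 119 CPM in osteoblast-like cells and 677 and 692 against 313 and 371 CPM in reticular stromal cells. The part of these lists in the Hes1 values was not tested.

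**Figure D5:**
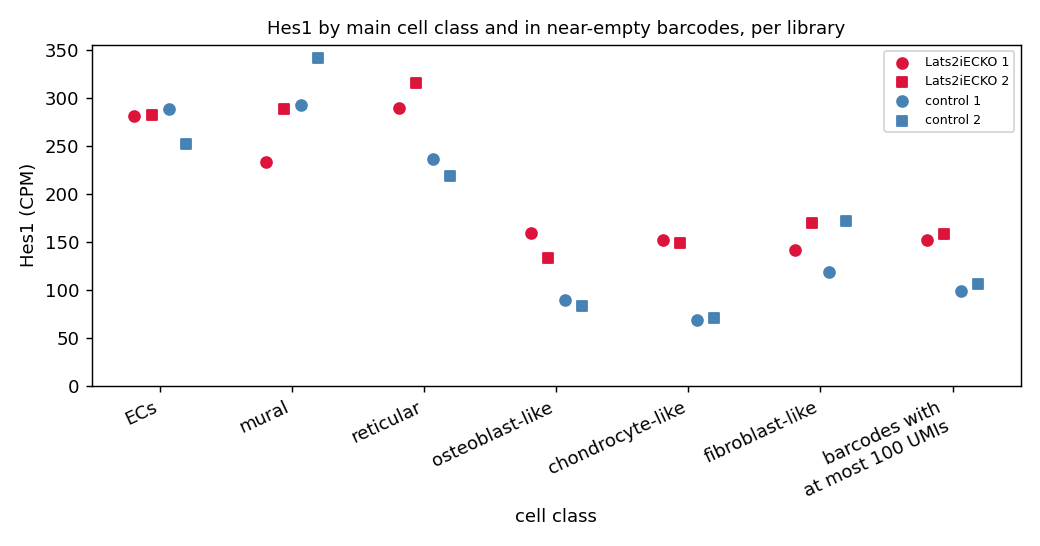
Hes1 level in CPM (vertical axis, from 0) in the 6 main cell classes and in barcodes with at most 100 UMIs (horizontal axis), 1 point per library, Lats2iECKO in red and control in blue. The red points lie above the blue ones in reticular, osteoblast-like and chondrocyte-like cells (152 and 149 against 68.4 and 70.9 in the last) and in the near-empty barcodes, and below or among them in mural and fibroblast-like cells.

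The other members in these classes were mostly below the filter. Notch2 in osteoblast-like cells was 78.6 and 78.6 against 53.4 and 61.0 CPM (log2 fold change 0.45 ± 0.10, adjusted p = 0.0129, edgeR), a call lost with DESeq2 (adjusted p = 0.075; the alternatives ranged from 0.00394 to 0.24) and without control replicate 1 (log2 fold change 0.36). In chondrocyte-like cells Notch2 had a log2 fold change of 0.05 ± 0.05. In osteoblast-like cells 2 of 2 tested members were called, where 10.8% of all genes tested were, in chondrocyte-like cells 1 of 2, where 62.6% were, and in fibroblast-like cells edgeR called 0 of 2, where 2.34% were. In fibroblast-like cells Hes1 was 142 and 170 against 118 and 171 CPM, DESeq2 called 0 there, and by either tool 0 members had an unadjusted p under 0.05.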

How the data were processed

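Per the labels, the libraries were made by the droplet 3′ method and processed by the authors with cutadapt (version 3.5) and STARsolo (version 2.7.10a) on GRCm39. The deposited values are expected counts per gene and barcode, with multi-mapped reads shared by expectation maximization, and gene and barcode lists. The authors kept whole-gene reads in sense direction, so overlapping genes can still share reads.

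Barcodes with at least 1000 UMIs, 800 genes, at most 15% mitochondrial and 5% hemoglobin counts were kept. The members, marker lists and the list of 40 pathway genes were chosen with earlier results of these data known. Each barcode was scored for each marker list (mean of scaled log values) and gated at a score of at least 0.2 and a lead of 0.1 over other types (subclasses 0.15 and 0.05). The share of a class within 0.05 of the cut was 2.9% in ECs, 11.7% in mural cells and up to 26.0% in fibroblast-like cells, and the median score of the next list was 0.109 in ECs (reticular list). One marker gene is not reported here; the red cell sum was set without it, after values were seen. No doublet caller was run; the top 5% of UMIs were left out as an alternative. Expected counts were summed per class and library, rounded and tested with edgeR (version 4.0.16; TMM, filterByExpr). The SE is the log2 fold change divided by the square root of the F statistic. Members below the filter were not called. Contrasts across subclasses had library as a block. Alternatives were DESeq2 (version 1.42.0), its size factors, no gene filter, other gates, Leiden clusters, subtraction of free RNA, leaving out each library and a replicate block. The joint tests between classes within controls were varied, and the Rgs5 gate restricted to cells with log-scaled Rgs5 of at least 2.5 and under 2 Mmp9 and Mmp13 UMIs, by alternatives chosen after the data were seen. The pipeline was tested on simulated data. Named beyond the members, by rule, were the label checks, the pathway genes called in ECs, arterial-like ECs or mural cells, and the 3 genes most correlated with each of Dll4, Notch3 and Notch4 among those with a mean of at least 10 CPM; pathway genes of the mural subclasses, and the markers of the Rgs5 gate, Pdgfrb, Mmp9, Mmp13 and the red cell genes, were named after their values were seen.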

Additional observations from a re-analysis of the deposited data

Results flagged for a closer look

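Notch3 and Jag1 changed with genotype to a different degree in the mural gates. The difference of the log2 fold changes, SMC-like cells minus Rgs5 gate, was 0.98 for Notch3 (adjusted p = 0.000168) and 1.00 for Jag1 (adjusted p = 0.00264) in an edgeR interaction test with library as a block. Both were called again when the Rgs5 gate was restricted to Rgs5-high cells with fewer than 2 Mmp9 and Mmp13 UMIs.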

How the results depend on the processing

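Of 206 alternative counts of called members or pathway genes over 19 results, 190 stayed within 1.5 times the main count. Unlike the counts given above for both genotypes, these include genes that passed the filter through 1 genotype only. On this base the main count was 4 members in reticular stromal cells and 11 pathway genes in mural cells. With DESeq2 the count of called members was 2 in reticular stromal cells, 1 in osteoblast-like cells and 1 in metaphyseal capillary-like ECs, and that of pathway genes was 5 in mural cells. Without the gene filter it was 1 in reticular stromal cells and 1 in sinusoidal-like ECs (Jag2). A stricter gate gave 1 in Vwf/Fmo2 ECs (Hes1). In SMC-like cells Notch3 was called, giving 1, with 2000 UMIs and 10% mitochondrial counts, with a stricter gate, after free RNA was subtracted and with the replicate block. Without each library in turn the counts were 0 to 1 in SMC-like cells, 2 to 4 in reticular stromal cells, 1 to 2 in osteoblast-like cells, 3 to 5 in ECs and 7 to 11 pathway genes in mural cells; 7 came without control replicate 1. The libraries share only a replicate number: deviations of same-numbered libraries correlated at −0.13 to 0.17 over the classes, and as a block the number changed no other member count by over 1.5 times. The cause of these changes was not tested.

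Calls of Notch1, Notch4 and Jag1 in ECs, Notch4 in arterial-like and metaphyseal capillary-like ECs, Notch3 and Jag1 in mural cells and the Rgs5 gate, and Hes1 in reticular, osteoblast-like and chondrocyte-like cells held in every alternative run, while over all members called 32 re-estimated values lost significance and 239 kept it. The sign turned only for members that were not called. With each library left out, ranges that crossed 0 were −0.24 to 0.34 for Dll1 and −0.11 to 0.17 for Dll4 in ECs, −0.0432 to 0.0142 for Notch1 in mural cells, −0.30 to 0.0507 for Notch2 and −0.11 to 0.47 for Hes1 in fibroblast-like cells, −0.23 to 0.0414 for Notch1, −0.55 to 0.10 for Notch4 and −0.0041 to 0.31 for Jag1 in sinusoidal-like ECs, −0.43 to 0.0542 for Dll1 and −0.47 to 0.12 for Jag2 in metaphyseal capillary-like ECs, −1.11 to 0.28 for Notch1, −0.54 to 0.42 for Notch4, −0.25 to 0.0907 for Dll4 and −0.0651 to 0.45 for Hes1 in Apln tip-like ECs, −0.35 to 0.60 for Dll1 in Vwf/Fmo2 ECs, −0.25 to 0.43 for Notch2 in SMC-like cells and −0.0775 to 0.25 for Hes1 in the Rgs5 gate. Without the gene filter the values were 0.0386 for Notch1 in mural cells and 0.12 for Notch4, 0.13 for Dll4 and 0.0117 for Jag2 in Apln tip-like ECs. A stricter gate gave 0.27 for Notch4 in sinusoidal-like ECs and −0.0122 for Hes1 in the Rgs5 gate, and leaving out the top 5% of UMIs gave 0.0799 for Dll4 in Apln tip-like ECs. The Apln tip-like ECs held 12 and 10 control cells, and edgeR called 54 of all genes tested there, 13 and 34 without Lats2iECKO replicates 1 and 2, 249 and 140 without control replicates 1 and 2, 15 with the replicate block and 19 without the top 5% of UMIs. Under the stricter gate and the 2000-UMI filter this class had too few control cells for a fit of its own.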
